A study of Mus musculus with 6 samples.

Results

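Purinergic receptors are the cell-surface proteins that sense nucleotides outside the cell, and 10 of their genes, P2ry2, P2ry1, P2ry4, P2ry6, P2ry14, P2rx1, P2rx4, P2rx5, P2rx6 and P2rx7, are described here. They were chosen by gene symbol, each through the probe sets that the platform annotation pairs with that symbol alone, and all 10 were found among the 19938 genes measured. Each of the 10 had 1 such probe set. RNA came from type II alveolar epithelial cells, the surfactant-secreting cells of the lung, pooled from 3 mice aged 8 weeks for each of 6 Affymetrix arrays and collected 2 hours after isolation. On 3 arrays, labelled Gpr116 KO, the mice were triple-transgenic, with SP-C-rtTA, (tetO)7CMV-Cre and the conditional allele Gpr116flx/flx. On the 3 control arrays they were littermates with SP-C-rtTA and (tetO)7CMV-Cre alone, so both groups carried the rtTA and Cre transgenes. Cre expression in this system depends on a surfactant protein C promoter that drives rtTA and on doxycycline, so recombination is restricted to cells in which that promoter is or was active. Gpr116 is an adhesion G protein-coupled receptor, now named Adgrf5, and the study asked what its deletion does to transcripts of these cells.

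Extracellular ATP and UTP act through a pair of receptor families. P2Y receptors are G protein-coupled, and several of them, P2Y2 among them, couple through Gq to phospholipase C, inositol trisphosphate and release of stored calcium. P2X receptors are trimeric ion channels that ATP opens directly to sodium and calcium. In type II cells, ATP acting on P2Y2 is among the strongest known stimuli of surfactant secretion, and ectonucleotidases on cell surfaces end the signal by breaking nucleotides down to adenosine.

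The values are log2 expression values from RMA, a method that corrects background, forces all arrays onto one distribution and joins the probes of a probe set, so a change shared by most genes would not be seen. Array medians were 6.77 to 6.81. Brightness differs between probe sets for reasons other than transcript amount, so no receptor's level is set against that of another. The Gpr116 probe set read 11.89, 11.78 and 11.87 on the arrays labelled knockout, against 11.49, 11.53 and 11.51 on the control arrays. It was thus higher, not lower, where the gene was to be deleted, by 0.34 ± 0.05 (SE; adjusted p = 0.0119 by the limma test described below). That difference had an adjusted p under 0.05 in 11 of the 16 alternatives given at the end. Whether its probes fall inside the deleted exons is unknown. All directions therefore rest on the labels, and the arrays are called labelled knockout throughout. The 10 type II markers, Sftpc and Abca3 among them, averaged 12.43 to 12.48 on the arrays labelled knockout, against 12.34 to 12.36 on control arrays. By the limma test 2 of the 10 were higher and 0 lower at an adjusted p under 0.05, beside 3.36% and 5.13% of all genes. By Xist and Y-linked genes, knockout 2 and control 1 were male pools and the other 4 were female. Nothing in the labels says whether pools were prepared on separate days, and p-values measure only the spread between these pools.

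Promoter sequences are shown for P2ry2 and P2rx6, a receptor gene that rose and one that fell in the comparison described afterwards. They cover 250 bases before to 50 bases after an annotated start, from RefSeq on GRCm38.p6, which held 8 of the 10 genes. The P2ry2 window lies at chr7:101012004-101012303 on the minus strand and the P2rx6 window at chr16:17561635-17561934 on the plus strand. Each runs from 5′ to 3′, and capitals mark GC boxes (GGGCGG), E-boxes (CACGTG) and TATA boxes (TATAAA), searched on both strands.
P2ry2: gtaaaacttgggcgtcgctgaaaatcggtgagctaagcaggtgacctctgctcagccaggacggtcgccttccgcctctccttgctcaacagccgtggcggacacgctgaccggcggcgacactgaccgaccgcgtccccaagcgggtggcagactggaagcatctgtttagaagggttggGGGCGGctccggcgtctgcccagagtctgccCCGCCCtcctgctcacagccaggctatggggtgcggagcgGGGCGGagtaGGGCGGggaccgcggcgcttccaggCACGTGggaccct
P2rx6: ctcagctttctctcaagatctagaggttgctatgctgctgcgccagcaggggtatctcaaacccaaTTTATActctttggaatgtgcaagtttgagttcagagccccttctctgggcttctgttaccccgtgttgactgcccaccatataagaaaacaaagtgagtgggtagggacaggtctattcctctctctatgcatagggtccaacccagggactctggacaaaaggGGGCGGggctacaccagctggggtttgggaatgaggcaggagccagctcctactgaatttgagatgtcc
The P2ry2 window was 67.3% G and C with 28 CpG dinucleotides, and the P2rx6 window was 51.3% G and C with 3. The medians over 32851 promoter windows of the same length were 52.7% and 7.0. Among receptor genes that did not pass the test in that comparison, windows ranged from 43.3% with 3 (P2ry14) to 70.7% with 25 (P2ry1). P2ry2 held 4 GC boxes and 1 E-box, and P2rx6 held 1 GC box and, on the opposite strand, 1 TATA box that shares a base with 1 CCAAT box. That TATA box match lies at -184 to -179 from the annotated start. A GC box was present in 35.7% of all windows, an E-box in 7.15%, a TATA box in 13.6% and a CCAAT box in 37.4%. No match was found in either window to an AP-1 motif (TGANTCA, in 7.81% of all windows), a cyclic AMP response core (TGACGT, 7.51%), a STAT motif (TTCNNNGAA, 8.3%) or the NF-kappaB consensus (8.46%). These matches describe letters in these windows and do not show binding. The P2ry2 window shown is the first listed for that gene. A window from another annotated P2ry2 start, at chr7:101011949-101012248, was 71.0% G and C with 30 CpG dinucleotides. It overlaps the window shown and holds the same 4 GC boxes and the same E-box. The E-box lies at -18 to -13 from that start, against 37 to 42 in the window shown.

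P2ry2 and P2rx5 rose and P2rx6 fell on the arrays labelled knockout, and the other 7 receptor genes did not pass the test. A gene is called where its adjusted p from limma, a linear model with the spread shared across all 19938 genes, was under 0.05. Of all genes 8.49% were called, 3.36% higher and 5.13% lower. The 3 of 10 receptor genes called are a description, since the genes were picked with earlier results of these data known. The groups did not overlap for 5 of the 10, against 27.6% of all genes. The median difference of the 10 was 0.043 on the log2 scale, and that of all genes was 0.0033, so no common direction was seen.

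**Figure D1:**
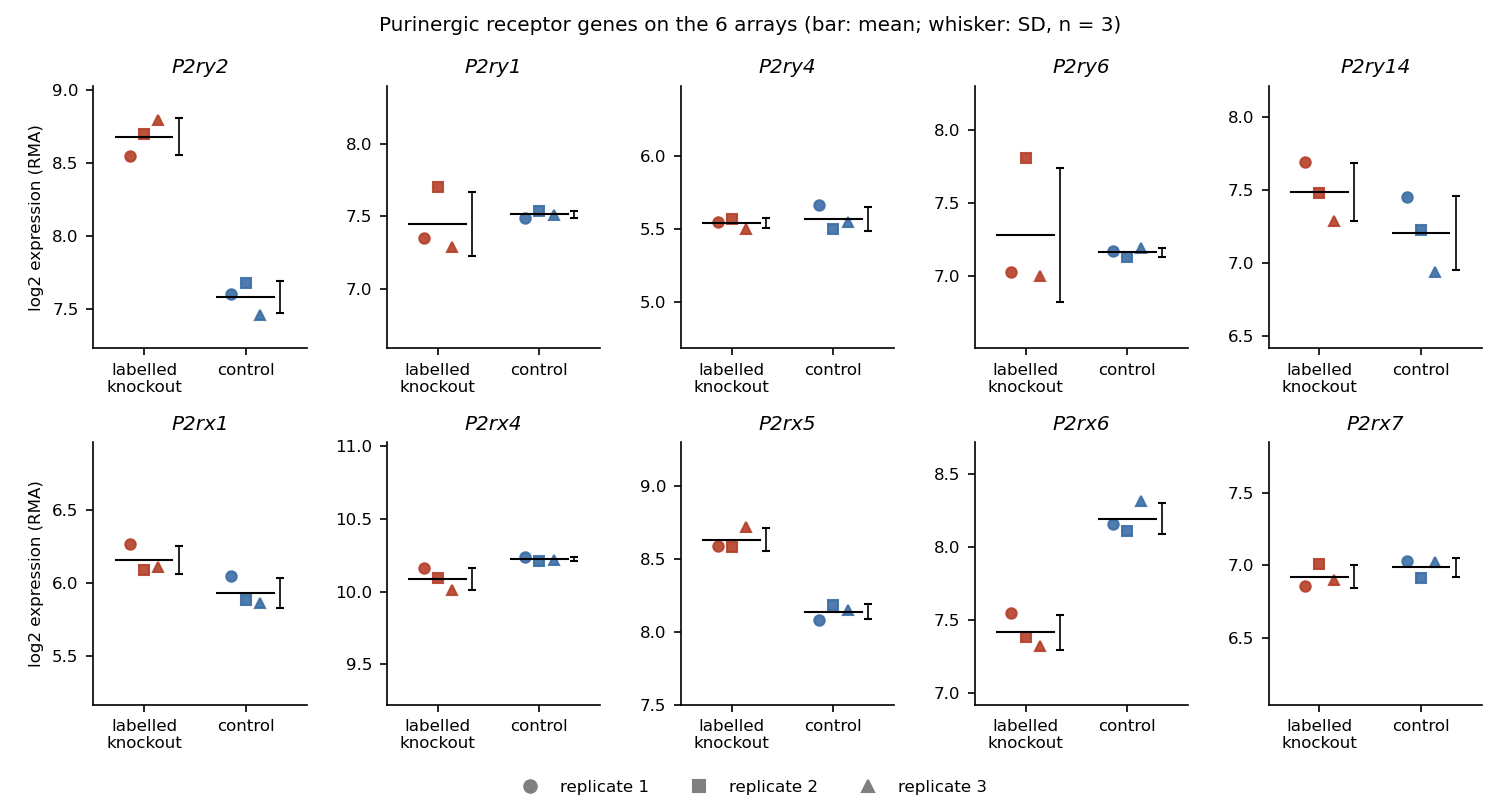
Log2 expression of the 10 receptor genes, with 1 panel per gene, arrays labelled knockout at left and control arrays at right, marker shape giving the replicate number, bars the mean and whiskers the SD (n = 3). All panels span the same log2 range, and the groups separate widely for P2ry2 (8.55 to 8.80 against 7.46 to 7.68), P2rx5 and P2rx6, while knockout 2 stands alone for P2ry6 at 7.81.

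P2ry2 encodes the ATP and UTP receptor that couples to Gq. It read 8.55, 8.70 and 8.80 on the arrays labelled knockout, against 7.60, 7.68 and 7.46 on the control arrays. Every array labelled knockout was above every control array, and the gap between the groups was wider than the spread within them (SD of 0.13 labelled knockout and 0.11 control). The difference was 1.103 ± 0.086 on log2 (SE, n = 3 per group), with a 95% interval that corresponds to 1.87-fold to 2.47-fold (limma adjusted p = 0.00371). Among genes called higher, 22 had a larger difference, and 0.592% of all genes differed by more in either direction. Same-numbered arrays differed by 0.95, 1.02 and 1.34. The call held whichever single array was left out, with differences of 1.04 to 1.17 and adjusted p of 0.000457 to 0.0274 by limma.

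P2ry6, which encodes a receptor for UDP, is a protein-coding neighbour of P2ry2 in the RefSeq gene order and was not called. It read 7.03, 7.81 and 7.00 on the arrays labelled knockout, against 7.17, 7.13 and 7.19 on the control arrays. Knockout 2 was the highest of all 6 arrays and the other 2 arrays of its group were the lowest. The difference of 0.12 ± 0.21 (95% interval -0.37 to 0.60; limma adjusted p = 0.814) turned to -0.15 ± 0.05 without knockout 2 (adjusted p = 0.152). The mean of 8 mesenchymal markers, Col1a1 and Acta2 among them, was also highest on knockout 2, at 9.84, with 9.37 and 9.32 on knockout 1 and 3 and between 9.27 and 9.53 for controls. Their part in the P2ry6 value was not tested. In a pool of cells, more cells of a type and more RNA per cell cannot be told apart.

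P2ry1, which encodes an ADP receptor coupled to Gq, also stood highest on knockout 2. It read 7.35, 7.70 and 7.29 on the arrays labelled knockout, against 7.49, 7.54 and 7.51 on the control arrays, a difference of -0.07 ± 0.11 (95% interval -0.32 to 0.19). P2ry4, which encodes another receptor for UTP, read 5.55, 5.57 and 5.50 on the arrays labelled knockout, against 5.66, 5.50 and 5.55 on the control arrays. The groups overlapped for both genes, and the P2ry4 difference was -0.03 ± 0.06 (95% interval -0.17 to 0.11). The P2ry4 values lay below the median of every array.

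P2ry14 encodes the receptor for UDP-glucose and other UDP-sugars, which couples to Gi. It read 7.69, 7.48 and 7.29 on the arrays labelled knockout, against 7.45, 7.23 and 6.94 on the control arrays. The groups overlapped, and in each of them number 1 was the highest and number 3 the lowest. Same-numbered arrays differed by 0.24, 0.25 and 0.35, each higher in the array labelled knockout. The difference was 0.28 ± 0.15 (95% interval -0.07 to 0.63; limma adjusted p = 0.339), and it was called in a fit blocked on replicate number, at 0.28 ± 0.06 (adjusted p = 0.0488). In that fit 7.94% of all genes were called. Without the block the difference was 0.15 when control 3 was left out and 0.40 without control 1, called in neither. It was the 1 receptor gene whose call changed with the block.

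Among the channels, P2rx5 rose. Its product forms ATP-gated channels that pass little current on their own in rat. The gene read 8.59, 8.58 and 8.72 on the arrays labelled knockout, against 8.08, 8.18 and 8.15 on the control arrays, with no overlap. The 1.41-fold difference (95% interval 1.27 to 1.55) had a limma adjusted p of 0.00601. Same-numbered arrays differed by 0.51, 0.40 and 0.57. The difference stayed between 0.45 and 0.52 whichever array was left out (adjusted p of 0.00520 to 0.0400).

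P2rx6, whose product reaches the cell surface poorly by itself in rat, was the receptor gene that fell. It read 7.55, 7.38 and 7.32 on the arrays labelled knockout, against 8.16, 8.11 and 8.32 on the control arrays. The highest array labelled knockout lay below the lowest control array, and the difference was -0.78 ± 0.08 (95% interval -0.98 to -0.58; limma adjusted p = 0.00487), or 1.72-fold lower. Among genes called lower, 330 had a larger difference. Without 1 array at a time it was -0.85 to -0.72, with adjusted p of 0.00119 to 0.0327. The 8 ciliated cell markers, Foxj1 and Dnah5 among them, moved with it. All 8 were called lower, beside 5.13% of all genes. Their mean was 8.65, 8.25 and 8.09 on knockout 1, 2 and 3, against 9.35 to 9.46 for controls. For both them and P2rx6, knockout 1 was the highest and knockout 3 the lowest of its group, with control 3 the highest of all. The 3 club cell markers were lower too, with a mean of 11.35 to 11.49 on the arrays labelled knockout, against 11.86 to 11.90 for controls. Of the 3, 2 were called lower, beside the same 5.13% of all genes. The part of these cells in the P2rx6 value was not tested.

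**Figure D2:**
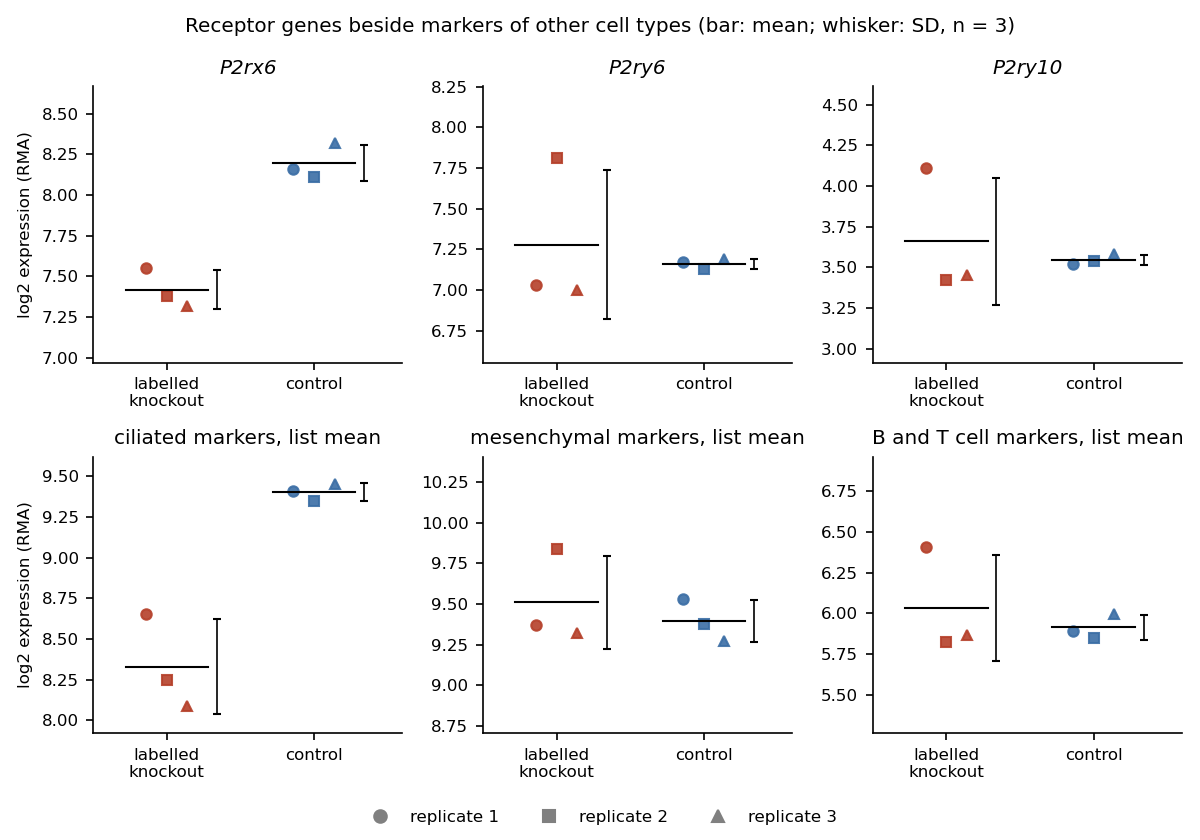
Log2 expression of P2rx6, P2ry6 and P2ry10 in the upper row and, in the lower row, the mean of ciliated, mesenchymal, and B and T cell markers, with arrays labelled knockout at left and control arrays at right, bars the mean and whiskers the SD (n = 3). Knockout 2 stands out for P2ry6 and the mesenchymal mean, and knockout 1 for P2ry10 and the B and T cell mean. P2rx6 and the ciliated mean are both lower across the arrays labelled knockout. The part of other cell types in the receptor values was not tested.

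P2rx4 encodes the channel found on lamellar bodies, where in rat type II cells it admits calcium after a body fuses with the plasma membrane. It read 10.16, 10.09 and 10.01 on the arrays labelled knockout, against 10.24, 10.21 and 10.22 on the control arrays. The groups did not overlap, but the difference of -0.14 ± 0.06 (95% interval -0.27 to -0.0044) was not called (limma adjusted p = 0.211). P2rx7, a protein-coding neighbour, encodes a channel that needs high ATP and is known for inflammasome activation in macrophages and as a marker of type I alveolar cells. It read 6.86, 7.01 and 6.90 on the arrays labelled knockout, against 7.03, 6.91 and 7.02 on the control arrays, a difference of -0.06 ± 0.06 (95% interval -0.21 to 0.09). The groups overlapped for P2rx7. The mean of 8 type I markers was 9.84 to 10.13 on the arrays labelled knockout, against 9.88 to 10.09 for controls. The markers went in both directions, with differences of -0.38 to 0.62. Of them 1 was called higher and 0 lower, beside 3.36% and 5.13% of all genes.

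P2rx1 encodes a fast channel of platelets and smooth muscle. It read 6.27, 6.09 and 6.11 on the arrays labelled knockout, against 6.05, 5.88 and 5.86 on the control arrays. These values lay below the median of every array, as for P2ry4. The groups did not overlap, and same-numbered arrays differed by 0.22, 0.21 and 0.25. The difference of 0.23 ± 0.08 (95% interval 0.04 to 0.41) was not called (limma adjusted p = 0.139). Of 4 measured platelet markers 1, Pf4, was called higher and 0 lower, beside 3.36% and 5.13% of all genes. Their mean was 6.21 to 6.30 on the arrays labelled knockout, against 6.04 to 6.15 for controls. The part of platelets in the P2rx1 value was not tested.

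Of 6 further P2 receptor genes, 0 were called by limma, and 1 had an unadjusted p under 0.05. That was P2rx2, which encodes an ATP-gated channel of neurons, at 0.24 ± 0.09 (adjusted p = 0.161). It read 6.51, 6.31 and 6.54 on the arrays labelled knockout, against 6.30, 6.09 and 6.26 on the control arrays. P2rx3, the channel gene of sensory neurons, stood at -0.07 ± 0.07 and P2ry13, an ADP receptor gene, at 0.06 ± 0.08. P2ry12, the platelet and microglial ADP receptor gene, read 4.19 to 4.22 on the arrays labelled knockout, against 4.26 to 4.45 on the control arrays, and stood at -0.13 ± 0.06. P2ry10 and P2ry10b carry the family name, and P2ry10 is known as a lysophosphatidylserine receptor of lymphocytes. P2ry10b stood at -0.0067 ± 0.06. P2ry10 was 4.11 on knockout 1 and 3.42 to 3.58 on the other 5 arrays, and the mean of 7 B and T cell markers was likewise highest on knockout 1, at 6.41 against 5.82 to 5.996 elsewhere. Adjusted p values of the 6 genes were 0.161 to 0.968, and all their values lay below the median of every array.

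**Figure D3:**
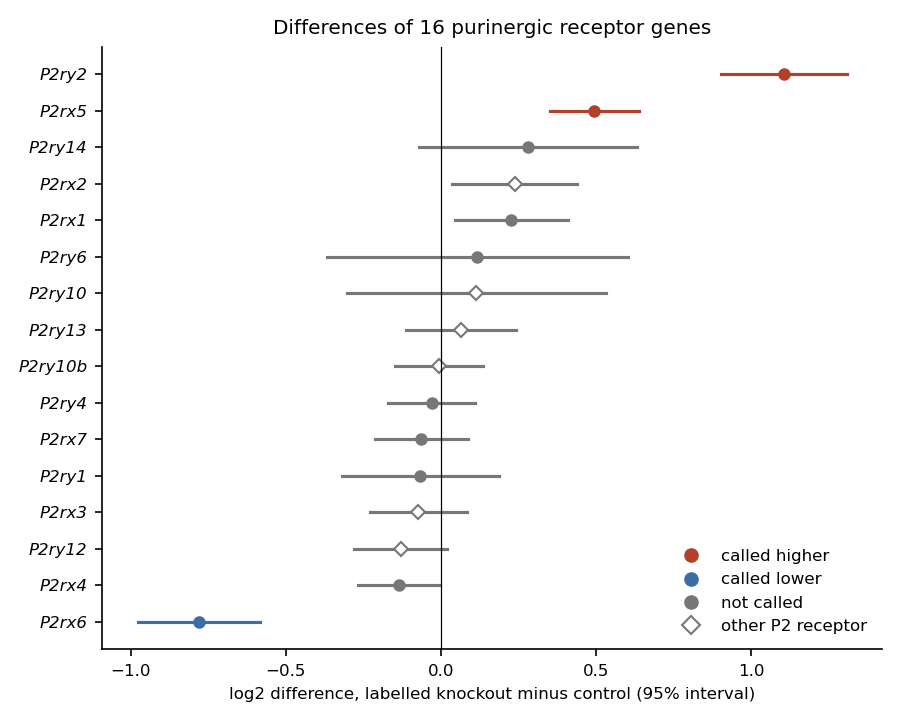
Log2 difference, labelled knockout minus control, of the 10 receptor genes (circles) and 6 further P2 receptor genes (open diamonds), with lines giving the 95% interval of limma and colour the call. P2ry2 and P2rx5 lie to the right and P2rx6 to the left of 0, while the intervals of P2rx1, P2rx2 and P2rx4 leave out 0 without a call at an adjusted p under 0.05.

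Genes that release, break down or relay nucleotide signals went in several directions. Of 10 measured genes for channels and transporters named in nucleotide release, 3 were called higher and 0 lower, beside 3.36% and 5.13% of all genes, and the median difference was 0.09. Gja1, which encodes a connexin of gap junctions and hemichannels, read 10.59, 10.28 and 10.34 on the arrays labelled knockout, against 9.74, 9.53 and 9.60 on the control arrays (0.78 ± 0.10; limma adjusted p = 0.00608). The groups did not overlap. Gjb1, another connexin gene, rose by 0.53 ± 0.07 (adjusted p = 0.00670), a call lost in the female pools (0.0663). Slco2a1, a prostaglandin transporter gene also tied to a large anion channel, rose by 0.28 ± 0.05 (adjusted p = 0.0232), a call lost without knockout 3, control 1, control 2 or control 3 (up to 0.109). Panx1, the ATP-releasing pannexin gene, stood at 0.11 ± 0.05 and Slc17a9, the vesicular nucleotide transporter gene, at 0.0033 ± 0.06, neither called.

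Of 11 measured ectonucleotidase genes and nucleotide-cleaving relatives, 2 rose, 2 fell and 7 did not pass, beside 8.49% of all genes called in either direction, and the median difference was -0.17. Entpd1 encodes CD39, which breaks extracellular ATP and ADP down to AMP. It read 10.35, 10.38 and 10.70 on the arrays labelled knockout, against 9.67, 9.71 and 9.61 on the control arrays, 1.76-fold higher (0.81 ± 0.10 on log2; limma adjusted p = 0.00578). Entpd8, which encodes another surface enzyme of that family, read 6.40, 6.21 and 6.29 on the arrays labelled knockout, against 7.08, 6.92 and 7.13 on the control arrays (-0.74 ± 0.08; adjusted p = 0.00473). Neither pair of groups overlapped, so 2 enzymes of the same family moved in opposite directions. In the 4 female pools neither was called (0.0568 for Entpd1 and 0.0545 for Entpd8). Bst1, an ADP-ribosyl cyclase gene, rose by 0.60 ± 0.11, a call that ended when knockout 3, control 2 or control 3 was omitted (adjusted p up to 0.0859). Entpd5, which encodes a nucleotidase of the endoplasmic reticulum, fell by 0.48 ± 0.07, a call that ended when any 1 of the 3 control arrays was omitted (up to 0.0672). Enpp3 stood at -0.47 ± 0.19 (adjusted p = 0.207) and was called in the fit blocked on replicate number (0.0288). Entpd3 (-0.35 ± 0.14) and Enpp3 were called without knockout 1. The list then had 6 called genes, and of all 19938 genes 664 were called higher and 1265 lower. Without control 2 the list had 2, with 144 higher and 370 lower over all genes. Without control 3 it had 2, with 158 and 301. As the number over all genes moved too, these counts are no result about the list. Nt5e, which encodes CD73, the enzyme that makes adenosine from AMP, stood at -0.15 ± 0.14.

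Of 9 measured genes of adenosine handling, 1 fell and 0 rose, a share near the 8.49% called among all genes and so no result about the list, and the median difference was -0.02. Slc28a3, which encodes a concentrative nucleoside transporter, read 5.93, 5.41 and 5.82 on the arrays labelled knockout, against 6.81, 6.50 and 6.57 on the control arrays (-0.91 ± 0.15; limma adjusted p = 0.0133), and the groups did not overlap. The call ended when control 1 or control 3 was omitted (up to 0.0652). Adk, the adenosine kinase gene, stood at 0.30 ± 0.11 (adjusted p = 0.146). Without knockout 2 the list had 3 called genes, Dpp4 (0.405) and Slc29a1 (-0.60) being the 2 added. In that fit 835 of all 19938 genes were called higher and 1055 lower. Adenosine receptor genes were not analysed here.

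Of 24 measured genes of the Gq and calcium relay, 0 rose, 2 fell and 22 did not pass, a share near the 8.49% called among all genes and so no result about the list. The median difference was 0.01. The Gq subunit genes Gnaq (0.05 ± 0.06) and Gna11 (0.02 ± 0.07) and the phospholipase C gene Plcb3 (0.01 ± 0.06) were not called. Gna14, which encodes another subunit of the Gq class, read 7.19, 6.86 and 6.81 on the arrays labelled knockout, against 7.99, 7.76 and 7.74 on the control arrays (-0.88 ± 0.12; limma adjusted p = 0.00746, but 0.0732 in the female pools). The groups did not overlap. Knockout 1 was the highest and knockout 3 the lowest of its group, as for the ciliated markers, but control 1 was the highest control array for Gna14 and control 3 for those markers. Their part in the Gna14 value was not tested. Stim1, the calcium sensor gene of the endoplasmic reticulum, fell by 0.30 ± 0.07 (adjusted p = 0.0439), and its call was lost without knockout 2, knockout 3 or any of the 3 control arrays (up to 0.149) and in the fit blocked on replicate number. It also ended with the sex of the pool as a covariate (0.0767), with median centring (0.0526) and in the smaller sets of female pools (0.111) and of arrays numbered 8 or 9 (0.284), so that Stim1 was called in 6 of 16 alternatives. Without knockout 1 the list had 3 called genes, Prkch (-0.34) being the 1 added, while 664 of all 19938 genes were called higher and 1265 lower. Without knockout 2 Plcb4 (-0.34) was called in place of Stim1.

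**Figure D4:**
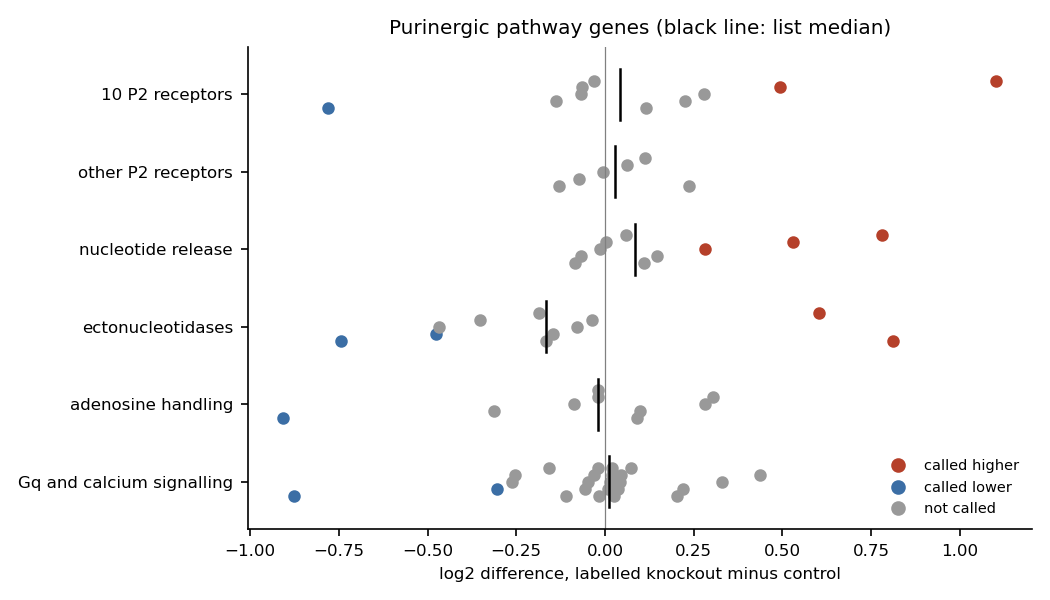
Log2 difference, labelled knockout minus control, of every measured gene of the 10 P2 receptors and 5 further lists, with 1 point per gene, colour giving the limma call and the black line the list median. The medians lie between -0.17 and 0.09, and called genes lie on both sides of 0 among the receptors and the ectonucleotidases.

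The genes whose profile over the 6 arrays was closest to that of P2ry2 were ranked by the root-mean-square difference in log2 after removing each gene's own mean. The 10 receptor genes and genes with predicted or clone symbols were left out of this ranking. Itga7, an integrin gene, was closest at 0.071 and read 8.69, 8.64 and 8.83 on the arrays labelled knockout, against 7.62, 7.65 and 7.57 on the control arrays. Next were Itih4, an acute phase inhibitor heavy chain gene, at 0.11, the microRNA gene Mir382 at 0.12, the iron-binding lipocalin gene Lcn2 at 0.12 and the metalloreductase gene Steap2 at 0.12. Their differences between groups were 0.91 to 1.26, as the measure favours genes with a difference like that of P2ry2.

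**Figure D5:**
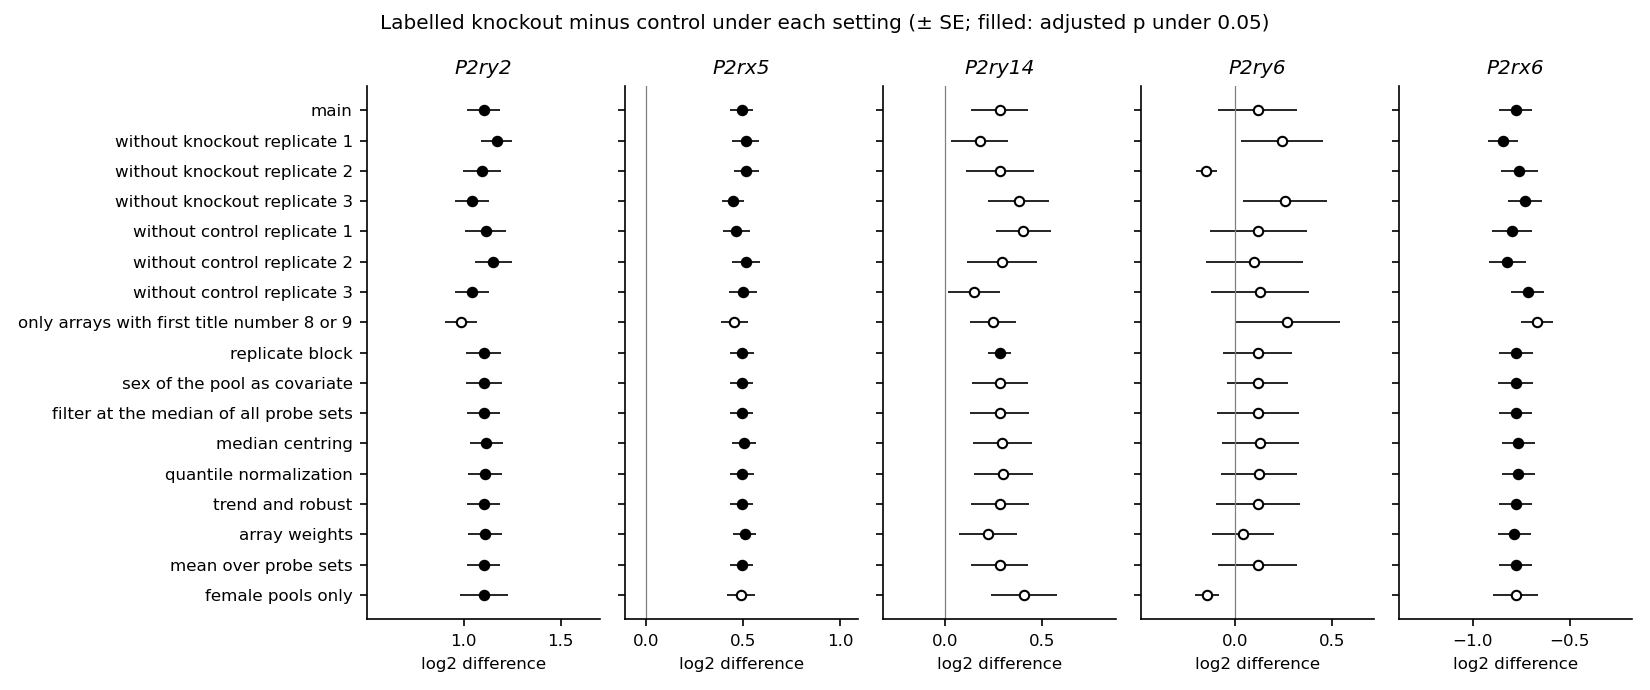
Log2 difference, labelled knockout minus control, of P2ry2, P2rx5, P2ry14, P2ry6 and P2rx6 under the reported setting and each of 16 others, with SE as whiskers and filled points where the adjusted p was under 0.05. P2ry2, P2rx5 and P2rx6 keep their side of 0 throughout, P2ry14 is filled only with the replicate block, and P2ry6 changes side without knockout 2 and in the female pools.

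Array titles carry a first number of 9, 9 and 11 on the arrays labelled knockout, against 8, 8 and 10 for controls. The labels do not explain it, each number holds 1 group, and if it marks a batch then batch and group cannot be told apart. On the 2 arrays per group numbered 8 or 9, P2ry2 differed by 0.985, P2rx5 by 0.455 and P2rx6 by -0.67 (limma adjusted p = 0.0996, 0.113 and 0.106). No gene of all 19938 was called there, while 2719 had an unadjusted p under 0.05, these 3 receptor genes included. In the 4 female pools, P2ry2 differed by 1.105 (adjusted p = 0.0492), P2rx5 by 0.49 and P2rx6 by -0.78 (adjusted p = 0.0556 for both).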

How the data were processed

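Messenger RNA of 6 pools, 3 labelled knockout and 3 control, was measured on Affymetrix mouse arrays. The deposited log2 values come from RMA, run by the authors in Affymetrix Expression Console (version 1.1), according to the submitters' processing notes. The array's genome build was not given in the sources used here. Of 35556 probe sets, 21789 had 1 gene symbol in the platform annotation, 1621 several and 12146 none. The brightest 1-symbol probe set stood for a gene, which left 19938 genes, and 21698 of the 1-symbol probe sets matched a RefSeq table (GRCm38.p6) by Entrez identifier. No filter was used.

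The groups were compared by lmFit and eBayes of limma 3.58.1 (R 4.3.3), two-sided, with Benjamini-Hochberg adjustment over all genes and a threshold of 0.05. On simulated data with 19938 genes, 65 of 100 genes changed by 0.5 and 92 of 100 changed by 1 were recovered, with 10 false calls. The number of arrays limits the precision. Deviations from group means correlated at 0.192, 0.103 and 0.111 between same-numbered arrays, each over the 0.1 taken as the limit. Between arrays of different number the correlations were -0.135 to 0.0428. Deviations within a group sum to 0 for each gene, so the contrast between these sets of correlations is partly built in. The numbers may pair the arrays, but this is not settled. With all probe sets the same-numbered correlations were 0.227, 0.038 and 0.106. The labels do not say what the numbers mark, and pairs 1 and 2 each join a male and a female pool. The reported fit therefore has no block, and the fit blocked on replicate number is an alternative.

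The receptor genes and the lists were chosen with earlier results of these data known. Named were all P2 receptor genes, called list genes or those with the smallest p, and the 5 genes closest to P2ry2. Other list genes named were chosen after their values were seen. Marker lists not described with a receptor gene were macrophage, neutrophil and endothelial. Of 7 macrophage and 5 neutrophil markers 0 were called by limma (0 at an unadjusted p under 0.05), and of 6 endothelial markers 1 was higher and 1 lower. Of all genes 3.36% were called higher and 5.13% lower. Alternatives left out each array, used other subsets, covariates, scalings, a filter, variance models or probe set means.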

Additional observations from a re-analysis of the deposited data

How the results depend on the processing

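Under 16 alternatives, of which the female pools were chosen after seeing the data, P2ry2, P2rx5 and P2rx6 kept their direction in all. P2ry2 was called in 15, P2rx5 and P2rx6 in 14 each. A filter at the array median kept 8 of the 10 receptor genes. On the arrays numbered 8 or 9 in their titles, called genes were 0 higher and 0 lower over all genes and 0 among the receptors and in each list, and P2ry2 (0.985), P2rx5 (0.455) and P2rx6 (-0.67) were not called. This fit has 2 arrays per group. In the female pools 114 genes were higher and 84 lower, and P2rx5 (0.49) and P2rx6 (-0.78) were not called. Called genes numbered 1 among the receptors (1 higher, 0 lower), 1 for nucleotide release, 1 for ectonucleotidases and 0 for Gq signalling. Adenosine handling kept 1 in the female pools, Slc28a3 (-0.66; limma adjusted p = 0.0475). The ectonucleotidase gene still called there was Bst1 (adjusted p = 0.0401), while Entpd1 (0.0568), Entpd8 (0.0545), Entpd5 (0.0853), Gjb1 (0.0663), Slco2a1 (0.0779) and Gna14 (0.0732) were not.

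The replicate block added P2ry14 (0.28) and changed no other receptor call. Called Gq genes were 1 with the block, with the sex of the pool as a covariate and with median centring. Over all genes these fits called 615, 475 and 688 higher and 969, 800 and 914 lower. The filter removed Slc28a3 (mean of 6.17 over the 6 arrays) before the test. As the 1 adenosine handling gene called in the reported fit, its removal left 0 called. Gjb1 and Entpd8 were also removed by the filter. With array weights 2 adenosine handling genes were called, Slc28a3 and Adk, while 1000 of all genes were called higher and 1285 lower. Apart from the filter, the causes of these changes were not tested. Leaving out 1 array at a time gave 144 to 835 genes higher and 301 to 1265 lower, the fewest higher without control 2 and the fewest lower without control 3, with 2 to 3 for nucleotide release, 2 to 6 for ectonucleotidases, 0 to 3 for adenosine handling, 1 to 3 for Gq signalling, and 3 throughout for the receptors. Omitting control 1 gave 206 higher and 389 lower, control 2 144 and 370, control 3 158 and 301, knockout 3 310 and 601.

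Several uncalled differences depended on 1 array. Over single arrays left out, P2ry14 was 0.15 (without control 3) to 0.40 (without control 1), P2ry12 -0.17 (control 3) to -0.07 (control 1), P2ry13 0.013 (knockout 1) to 0.13 (knockout 2), P2rx3 -0.12 (knockout 1) to -0.03 (knockout 2) and P2rx7 -0.11 (knockout 2) to -0.03 (knockout 1), all without a call. Others near 0 changed sign. Over single arrays left out, P2ry6 was -0.15 to 0.26, P2ry1 was -0.19 to 0.01 (0.012 without knockout 3), P2ry4 was -0.065 to 0.015 (0.015 without control 1), P2ry10 was -0.11 (without knockout 1) to 0.23, and P2ry10b was -0.050 to 0.035 (without knockout 3), with 0.0033 without control 1. On arrays numbered 8 or 9 P2ry1 was 0.01 and P2ry10b 0.02, P2ry10b was 0.0067 with median centring and 0.0050 in the female pools, and P2ry6 was -0.145 in the female pools.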
